A study of Macaca mulatta with 6 samples.

Results

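The genes described here are 9 members of the MHC class II antigen presentation pathway, taken by gene name from a count table of 32386 gene rows. They are HLA-DRA, HLA-DRB5, HLA-DPA1, CD74, CIITA, HLA-DMA, MAMU-DMB, HLA-DOA and HLA-DOB, each found on 1 row. RNA had been sequenced from 6 single granulocyte-macrophage colonies (CFU-GM) of rhesus macaque, 3 wild type for TET2 (WT) and 3 TET2+/-, with a uniallelic mutation predicted to abolish function (TET2 UA). Each colony grew for 14 days in methylcellulose from a CD34+ bone marrow stem or progenitor cell. The marrow was taken 15 months after an autologous transplant of mobilized CD34+ cells that had been treated with CRISPR/Cas9, so the WT colonies share that history. The labels give neither the number of animals nor the age of any, so p-values measure the spread between these colonies, which may be partly technical.

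MHC class II molecules are pairs of an alpha and a beta chain that show peptides from endosomes to CD4+ T cells. CD74, the invariant chain, fills the groove of newly made pairs and guides them to endosomes. There HLA-DM, made of DMA and DMB chains, removes the remnant of CD74 and selects peptides, and HLA-DO, made of DOA and DOB chains, inhibits HLA-DM. CIITA is the transactivator that the promoters of these genes require, and it joins a complex of RFX, NF-Y and CREB proteins bound there. Monocytes, macrophages, dendritic cells and B cells carry the pathway, and granulocytes mostly do not.

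Library totals ran from 6334264 to 25485143 counts. WT replicate 1 stood apart: 17.1% of the 13768 genes tested lay at least 2-fold from the mean of the other WT colonies there. The TET2 UA libraries resembled each other most, with a chi-square per gene of 4.33 to 5.37 between pairs, where counting noise alone gives about 1, against 12.7 to 91.2 between WT pairs. The labels describe 3 TET2 UA colonies, but the counts do not settle whether these libraries came from separate colonies, so their SDs and all p-values may rest on a spread that is technical. TET2, the edited gene, had 79.3, 92.8 and 109 CPM in WT and 238, 225 and 229 CPM in TET2 UA replicates 1 to 3, where CPM is the count per 1000000 counts after TMM scaling of the library totals. Its reads were not split by allele, so this level does not check the labels. Granulocyte and monocyte markers were present in both groups, at levels that differed widely. The summed level of 6 neutrophil granule genes was 1166 to 1291 CPM in WT and 24325 to 25175 CPM in TET2 UA, and that of 11 monocyte and macrophage genes was 1753 to 2158 against 8296 to 8452 CPM. LYZ made that rise: the other 10 genes, a split made after their values were seen, summed to 1298 to 1623 CPM in WT and 781 to 804 CPM in TET2 UA. Markers that go against a granulocyte-macrophage colony were found in both groups. Of 8 endothelial and stromal markers, 7 rose and DCN fell (median log2 fold change 6.59), and their summed level was 142 to 147 CPM in WT and 1200 to 1236 CPM in TET2 UA. The collagen gene COL1A2 had 0.942 CPM in WT and 560 CPM in TET2 UA in the mean, PF4, of megakaryocytes, 0.609 and 204 CPM, and EPX, of eosinophils, 2.9 and 877 CPM. Of 7 megakaryocyte markers, 4 rose, TUBB1 fell (440 to 203 CPM) and 2 did not pass. Of 6 mast cell, basophil and eosinophil markers, 4 rose, GATA2 fell (115 to 68.6 CPM) and 1 did not pass. Over all genes tested, 34.6% rose and 31.4% fell. Erythroid markers summed to 209 to 259 CPM in WT and 29.9 to 41.2 CPM in TET2 UA, with RHAG at 214 and 12.9 CPM in the mean. The part of these cells in the members' values was not tested. In such bulk colonies, fewer cells of a type and less RNA per cell cannot be told apart.

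Transcripts of the classical chains and of CD74 were abundant in all 6 colonies, at 563 CPM or more in each. Called changes between the genotypes went both ways. HLA-DOA and HLA-DOB, the chains of the HLA-DM inhibitor, rose in TET2 UA by 3.54-fold and, on a row of few reads, 8.23-fold, and MAMU-DMB rose by 1.64-fold. Another DOB row with more reads, MAMU-DOB, which is outside the 9 members, did not pass (log2 fold change 1.05, edgeR adjusted p = 0.115). HLA-DRB5 and CD74 fell, being 1.66-fold and 1.39-fold lower. HLA-DRA, HLA-DPA1, HLA-DMA and CIITA did not pass the test. By edgeR's quasi-likelihood test at an adjusted p under 0.05, 3 of the 9 members were called higher, where 34.6% of all genes tested were, and 2 of the 9 lower, where 31.4% were. The TET2 UA and WT colonies did not overlap for 7 of the 9 members, and for 73.2% of all genes. These shares are near the background, so they are no result about the members.

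The sizes of change were mostly small. The median log2 fold change of the members was 0.14, and over all genes tested it was 0.12. The median of its absolute size was 0.47 for the members and 1.06 over all genes. A log2 fold change within 0.5 of zero was seen for 5 of the 9 members, and for 24.7% of all genes. The 9 members together held 7426 to 9272 CPM in WT and 6922 to 7350 CPM in TET2 UA, with the highest sum in WT replicate 1 and every TET2 UA sum below those of the other WT colonies. This order was found under TMM scaling. As a share of the unscaled library total the sums overlapped, at 0.734% to 0.796% in WT and 0.730% to 0.767% in TET2 UA. Sums under other scaling factors were not computed.

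**Figure D1:**
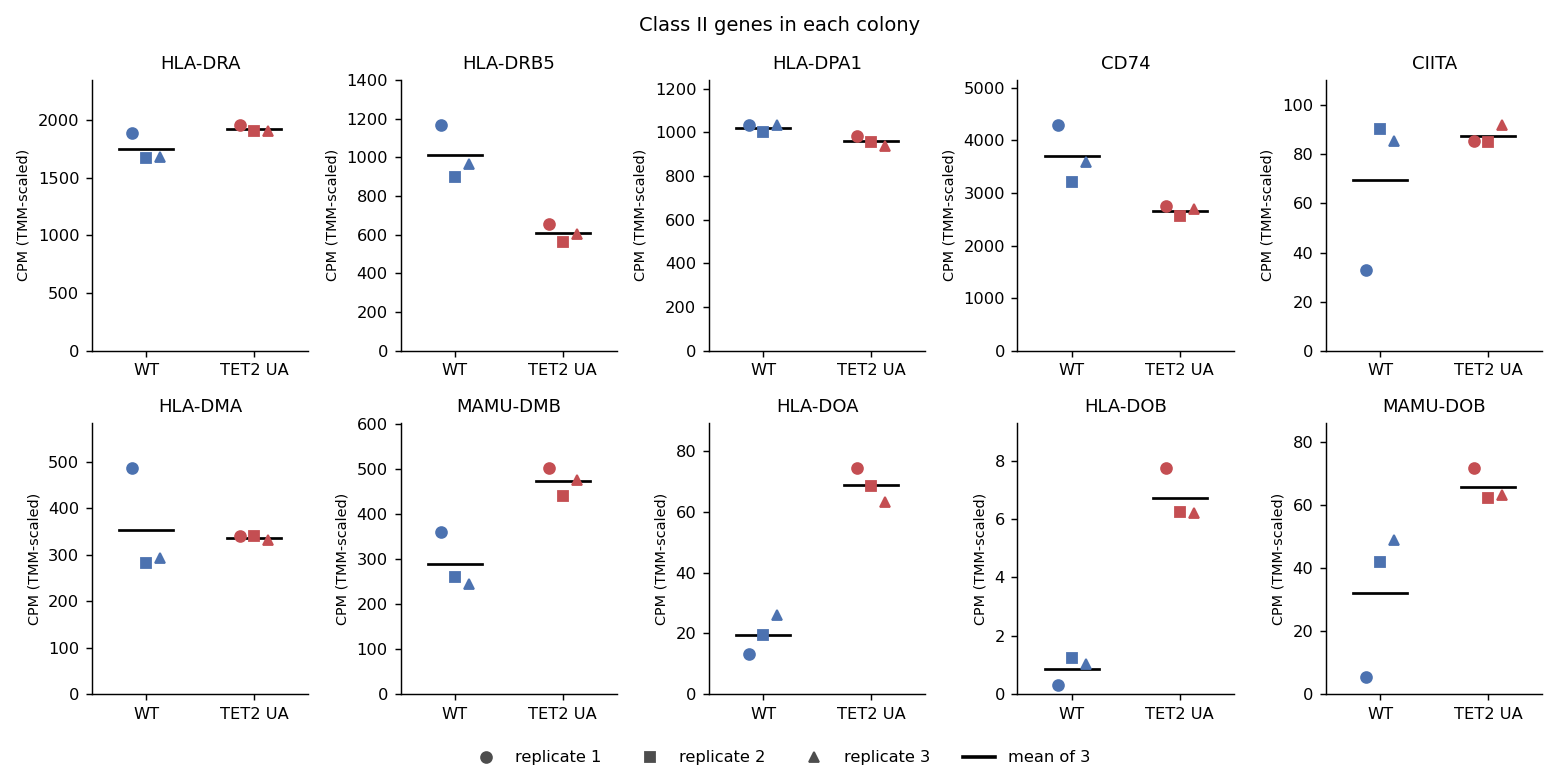
TMM-scaled CPM (linear axes from 0) of the 9 members and of MAMU-DOB in each WT and TET2 UA colony, with a symbol per replicate and a bar at the mean of 3. WT replicate 1 is the lowest WT colony for CIITA (32.8 CPM), HLA-DOA, HLA-DOB and MAMU-DOB and the highest for CD74, HLA-DRB5, HLA-DMA and MAMU-DMB.

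HLA-DRA encodes the invariable alpha chain of HLA-DR, the main class II molecule of myeloid cells. It had 1884, 1672 and 1676 CPM in WT replicates 1 to 3 and 1957, 1908 and 1903 CPM in TET2 UA replicates 1 to 3. All TET2 UA colonies lay above all WT colonies, by little. edgeR put the log2 fold change at 0.14 (SE 0.13), with an adjusted p of 0.349, with a 95% interval of -0.14 to 0.42. It was 0.21 and passed the test without WT replicate 1 (edgeR adjusted p = 0.00222).

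HLA-DRB5 is the row that holds reads of a DR beta chain, the partner of HLA-DRA. DRB genes are near-identical copies whose number varies between macaques, and no other row carries a DRB name. The reads of the HLA-DRB5 row may thus come from several DRB genes. Other DRB reads may lie on the 13408 rows without a name, so the total of DRB reads is not known. HLA-DRB5 had 1167, 899 and 966 CPM in WT and 656, 563 and 605 CPM in TET2 UA. Every TET2 UA colony was below every WT colony. The fitted log2 fold change came to -0.73 with an SE of 0.15 (adjusted p = 0.0012 by edgeR).

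The ratio of HLA-DRB5 to HLA-DRA counts within a library does not depend on scaling between libraries. It was 0.62, 0.538 and 0.576 in WT and 0.335, 0.295 and 0.318 in TET2 UA, so the beta chain row was lower relative to its alpha partner by 1.83-fold. The groups did not overlap, and a two-sided exact permutation test gave p = 0.1, the smallest that 3 colonies against 3 allow (0.114 after Benjamini-Hochberg adjustment over the 8 ratios computed).

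HLA-DPA1, the alpha chain of HLA-DP, spread least among the WT colonies of the 9 members, by 1.03 times from lowest to highest. It had 1034, 999 and 1032 CPM in WT and 984, 954 and 936 CPM in TET2 UA. The TET2 UA colonies were all slightly lower. Its log2 fold change by edgeR, -0.09 with an SE of 0.13 (adjusted p = 0.532), had a 95% interval of -0.37 to 0.18, and it turned to 0.07 when libraries were scaled by total alone. The files pair no row with a DPB, DQA or DQB name, so the partner of HLA-DPA1 and the DQ chains are not analysed here.

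CD74 had 4295, 3203 and 3591 CPM in WT and 2743, 2557 and 2695 CPM in TET2 UA. No TET2 UA colony reached the lowest WT colony. By edgeR, TET2 UA differed from WT by -0.47 on the log2 scale (SE 0.14, adjusted p = 0.0134). Its call rested on all 3 TET2 UA libraries: without replicate 1, 2 or 3 of that group the log2 fold change was -0.49, -0.44 and -0.48, with edgeR adjusted p-values of 0.0539, 0.0734 and 0.0551. CD74 made up 43.1% to 46.3% of the summed counts of the 9 members in WT and 36.9% to 37.9% in TET2 UA.

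CIITA differed more within WT than between the groups. It had 32.8 CPM in WT replicate 1 and 90.3 and 85.6 CPM in WT replicates 2 and 3, beside 85.4, 85.2 and 92.0 CPM in TET2 UA. WT replicate 1 was the low colony, at 0.373 of the mean of the other WT colonies, and the other 5 colonies overlapped. edgeR put the log2 fold change at 0.34 (SE 0.31), with an adjusted p of 0.358, with a 95% interval of -0.35 to 1.02. Without WT replicate 1 it was -0.00073, with an interval of -0.23 to 0.23 (edgeR adjusted p = 0.996).

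Not all target genes ran in parallel with the transactivator across the WT colonies. WT replicate 1, with the least CIITA, had 1.26 times as much CD74 as the mean of the other WT colonies, 1.25 times as much HLA-DRB5, 1.13 times as much HLA-DRA and 1.02 times as much HLA-DPA1. It also had 1.69 times as much HLA-DMA and 1.43 times as much MAMU-DMB. HLA-DOA and HLA-DOB were low there, at 0.576 and 0.284 of that mean. In all, under TMM scaling, WT replicate 1 lay above both other WT colonies for 6 of the 9 members and below both for 3. The TMM factor was 0.86 for WT replicate 1 and 0.99 for each of the other WT libraries. Divided by the unscaled library totals instead, HLA-DRA and HLA-DPA1 are lowest in WT replicate 1, so their order there depends on the scaling.

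**Figure D2:**
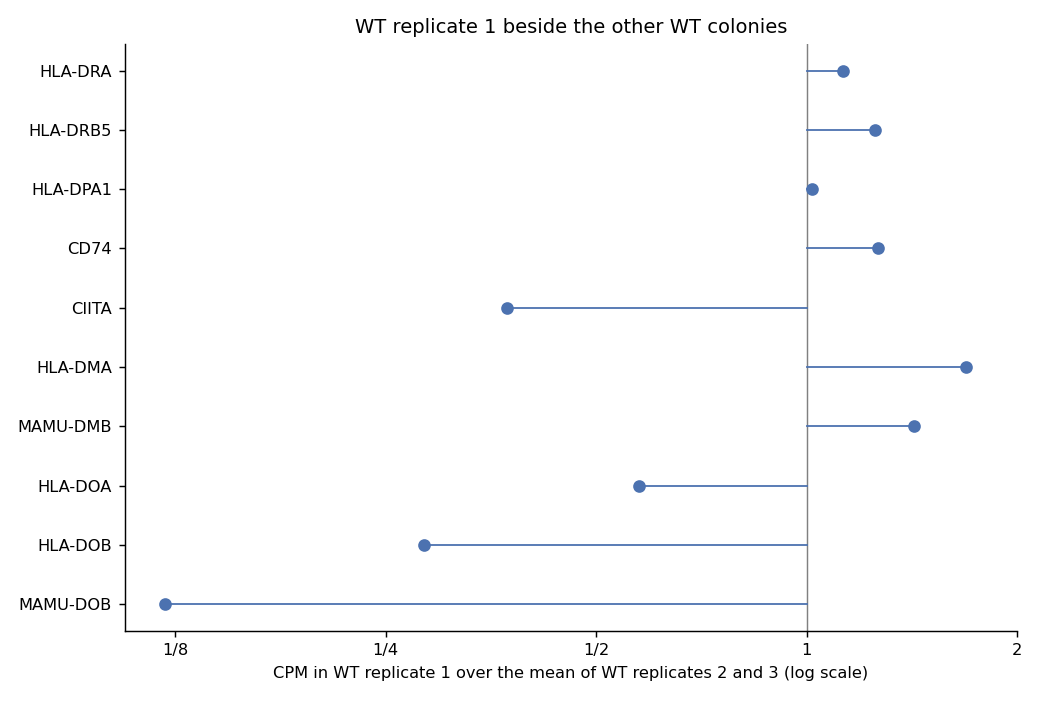
TMM-scaled CPM in WT replicate 1 divided by the mean of WT replicates 2 and 3 (log scale, line at 1) for the 9 members and MAMU-DOB. CIITA (0.373), HLA-DOA, HLA-DOB and MAMU-DOB lie below 1, and the classical chains, CD74, HLA-DMA (1.69) and MAMU-DMB lie above it.

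The HLA-DM chains changed unequally. HLA-DMA had 487, 282 and 293 CPM in WT and 340.3, 339.6 and 332 CPM in TET2 UA. The TET2 UA colonies lay between WT replicate 1 and the other WT colonies, so the groups overlapped. The fitted log2 fold change came to -0.07 with an SE of 0.20 (adjusted p = 0.771 by edgeR). Leaving out WT replicate 1 turned it to 0.24, and it passed the test (edgeR adjusted p = 0.00672).

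MAMU-DMB, the beta chain of the same pair, had 359, 259 and 245 CPM in WT and 502, 440.3 and 476 CPM in TET2 UA. All TET2 UA colonies were above all WT colonies. By edgeR, TET2 UA differed from WT by 0.72 on the log2 scale (SE 0.17, adjusted p = 0.0034). The ratio of MAMU-DMB to HLA-DMA counts was 0.738, 0.919 and 0.835 in WT and 1.48, 1.30 and 1.43 in TET2 UA. These ratios did not overlap either, and the beta row was 1.69-fold higher relative to the alpha row in TET2 UA (exact permutation p = 0.1, two-sided, the smallest possible).

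HLA-DOA had the smallest adjusted p of the 9 members. Its levels were 13.1, 19.5 and 26.0 CPM in WT and 74.5, 68.7 and 63.2 CPM in TET2 UA. Even the lowest TET2 UA colony was far above the highest WT colony. edgeR put the log2 fold change at 1.82 (SE 0.25), with an adjusted p of 8.03e-05, and it was 1.60 without WT replicate 1.

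The ratio of HLA-DOA to HLA-DMA was 0.0269, 0.0691 and 0.0888 in WT and 0.219, 0.202 and 0.191 in TET2 UA, a 3.71-fold difference. Divided by MAMU-DMB instead it was 0.0365, 0.0752 and 0.106 in WT and 0.148, 0.156 and 0.133 in TET2 UA, a 2.19-fold difference. The transcript of the inhibitor's alpha chain was therefore higher relative to both chains of its target in each TET2 UA library, with an exact permutation p of 0.1 (two-sided, the smallest possible) for each ratio. The size of such a ratio also depends on the lengths of the genes, so it is compared between libraries only. Of the remaining ratios computed, CD74 over HLA-DRA was 1.92 to 2.28 in WT and 1.34 to 1.42 in TET2 UA, and HLA-DPA1 over HLA-DRA was 0.549 to 0.616 against 0.492 to 0.503, neither with overlap. HLA-DOB over HLA-DOA was higher in every TET2 UA library, and MAMU-DOB over HLA-DOA overlapped (0.418 to 2.15 against 0.908 to 1.0).

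**Figure D3:**
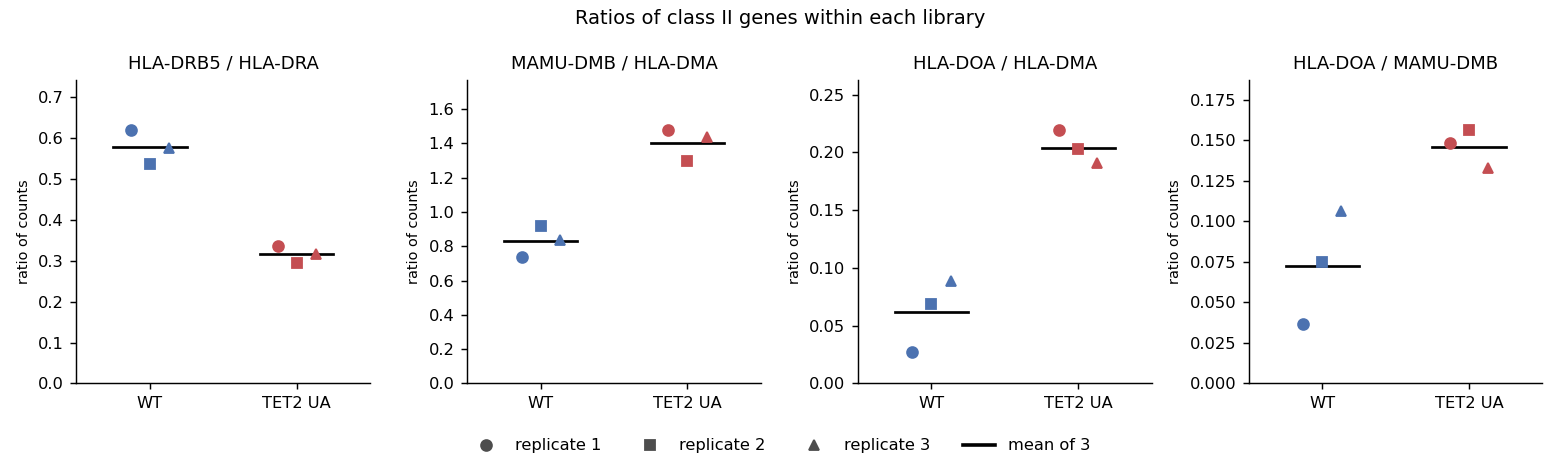
Ratios of counts within each library (linear axes from 0) for HLA-DRB5 over HLA-DRA, MAMU-DMB over HLA-DMA, HLA-DOA over HLA-DMA and HLA-DOA over MAMU-DMB, with a bar at the mean of 3. The first is lower in all 3 TET2 UA libraries (0.295 to 0.335 against 0.538 to 0.62 in WT) and the other three are higher in all 3.

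The DOB chain was counted on separate rows. The row named HLA-DOB held few reads: 7, 13 and 12 in the WT libraries, then 143, 65 and 42 in the TET2 UA ones. In CPM these were 0.32, 1.24 and 1.01 against 7.75, 6.25 and 6.20, with no overlap. The fitted log2 fold change came to 3.04 with an SE of 0.54 (adjusted p = 0.000498 by edgeR). Another row, paired with the name MAMU-DOB by the gene name table, held more of the reads.

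MAMU-DOB had 5.48, 42.0 and 48.8 CPM in WT and 71.8, 62.4 and 63.2 CPM in TET2 UA. WT replicate 1 was again low, at 0.121 of the mean of the other WT colonies. All TET2 UA colonies were above all WT colonies, but the log2 fold change of 1.05 (SE 0.55) did not pass (edgeR adjusted p = 0.115). Without WT replicate 1 it was 0.55 and passed (edgeR adjusted p = 0.00157). With both DOB rows summed, an alternative chosen after the data were seen, the log2 fold change was 1.15 (edgeR adjusted p = 0.0837). The larger change on the HLA-DOB row is therefore that of a small part of the DOB reads, and how reads were shared between the rows is not known.

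Beside the HLA-DO genes, markers of B-lineage cells, which are known for HLA-DO, were also higher in TET2 UA. Of 10 B-lineage markers tested, 9 were called higher and none lower, where 34.6% and 31.4% of all genes tested were. The summed level of the 11 on the list was 74.5 to 78.0 CPM in WT and 894 to 912 CPM in TET2 UA. EBF1 and VPREB1, of early B-lineage cells, had 1.90 ± 1.43 and 2.48 ± 1.01 CPM in WT and 288 ± 4.15 and 275 ± 18 CPM in TET2 UA (SD, n = 3). CD22 did not pass (called lower without TET2 UA replicate 3, edgeR adjusted p = 0.0301), and POU2AF1 was at 0 counts in all WT colonies. IGLL1 was not called in 5 of the 6 fits that left out 1 library, the exception being WT replicate 3, with edgeR adjusted p-values of 0.0681 to 0.163. BLK was not called without WT replicate 2 or any TET2 UA replicate (0.0573 to 0.104). The part of B-lineage cells in the rise of HLA-DOA and HLA-DOB was not tested.

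**Figure D4:**
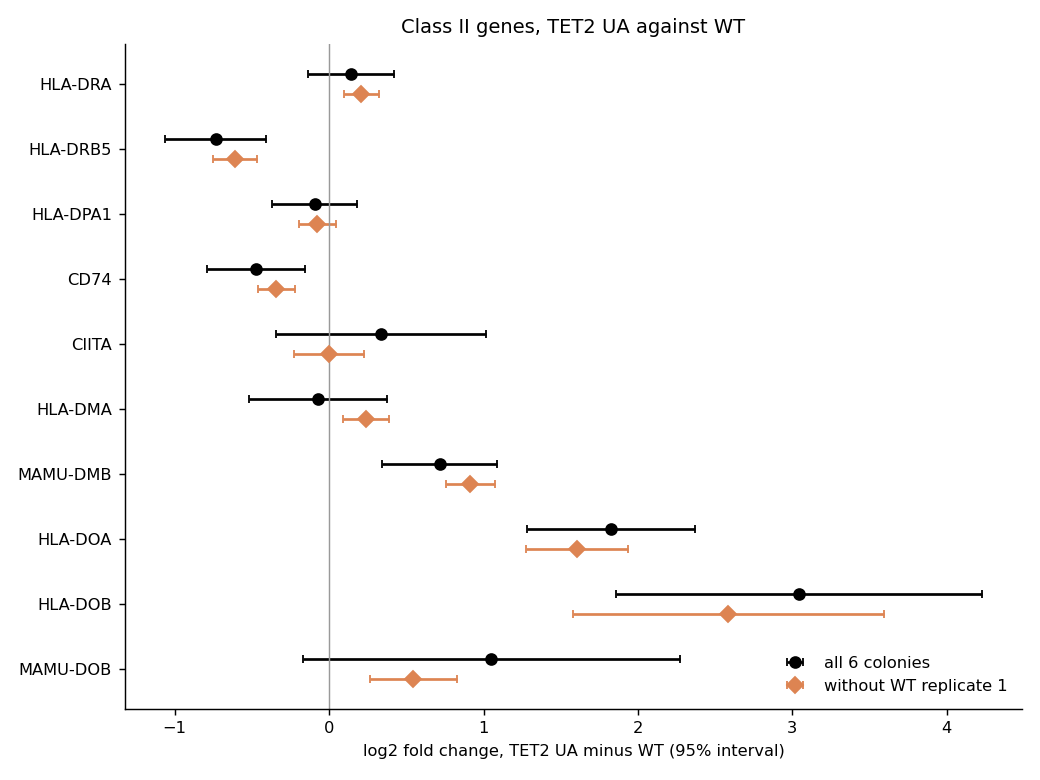
Log2 fold change of TET2 UA against WT with its 95% interval for the 9 members and MAMU-DOB, from all 6 colonies (black circles) and without WT replicate 1 (orange diamonds). The estimate for CIITA moves from 0.34 to near 0 and that for HLA-DMA crosses 0, while HLA-DRB5 and CD74 stay below 0 and MAMU-DMB, HLA-DOA and HLA-DOB above it.

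WT replicate 1 and the likeness of the TET2 UA libraries both bear on how many members were called. Without WT replicate 1, 5 of the 9 members were called higher, HLA-DRA and HLA-DMA joining the others, and 2 lower (37.4% and 31.9% of all genes in that fit). When the 3 TET2 UA libraries were added up and entered as 1 sample, leaving only the WT colonies to give the spread, 2 of the 9 members were called higher, where 18.6% of all genes were, and 0 lower, where 14.9% were. These 2 were HLA-DOA (log2 fold change 1.88, edgeR adjusted p = 0.00101) and HLA-DOB (3.08, edgeR adjusted p = 0.0109). In that smaller fit the adjusted p was 0.0940 for MAMU-DMB, 0.148 for HLA-DRB5 and 0.364 for CD74, with log2 fold changes of 0.75, -0.69 and -0.45. By unadjusted p under 0.05, edgeR also had 0 members lower in that fit, and no other tool was run on it.

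Of the DNA-bound proteins that recruit CIITA, 6 had a row, and 1 rose, 3 fell and 2 did not pass. Over all genes tested, 34.6% rose and 31.4% fell. RFXANK and RFXAP, subunits of the RFX complex, fell, the first from 105 ± 30.4 to 32.1 ± 4.22 CPM, the second from 13.5 ± 0.42 to 3.65 ± 1.02 CPM (SD, n = 3). Their log2 fold changes were -1.71 and -1.85 (SE 0.22 and 0.30, edgeR adjusted p = 6.34e-05 and 0.000243). NFYA and NFYC, subunits of NF-Y, had log2 fold changes of 0.68 and -0.43 (edgeR adjusted p = 0.00306 and 0.0295). The other NF-Y subunit, NFYB, and CREB1 did not pass, with log2 fold changes of 0.0026 and 0.31. RFXANK and RFXAP remained lower with the TET2 UA libraries summed, when NFYA and NFYC lost their calls (edgeR adjusted p = 0.141 and 0.408). NFYC also lost its call without WT replicate 3 or any 1 TET2 UA replicate (edgeR adjusted p = 0.0552, 0.122, 0.0706 and 0.108). The list's median log2 fold change was -0.21.

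Genes of the interferon gamma path to CIITA and of factors at its myeloid promoter moved in both directions, as did all genes tested. Of 14 tested, 7 rose, 4 fell and 3 did not pass, where 34.6% of all genes rose and 31.4% fell. The list's median log2 fold change was 0.26. IFNGR2, a chain of the interferon gamma receptor, fell from 323 ± 36.1 to 30.9 ± 2.94 CPM (SD, n = 3), or by 3.39 in log2 units with an SE of 0.17 (adjusted p = 1.12e-07 by edgeR). IRF1 and IRF8, transcription factors of interferon responses and of monocytes and dendritic cells, rose by 2.86 and 2.13 in log2 units (adjusted p = 1.84e-06 and 1.17e-06 by edgeR). BATF3, a partner factor in dendritic cells, had a log2 fold change of -4.50.

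Endosomal processing genes also moved in both directions. Of 15 tested, 8 rose, 3 fell and 4 did not pass, where 34.6% of all genes rose and 31.4% fell. The list's median log2 fold change was 0.45. CTSS, the protease that trims CD74 to its last remnant, rose from 133 ± 15.5 to 266 ± 11.0 CPM (SD, n = 3), or by 1.0 in log2 units with an SE of 0.15 (adjusted p = 0.000139 by edgeR). CTSD and LGMN, other endosomal proteases, rose by 1.43 and 1.32 on the log2 scale. IFI30, the lysosomal thiol reductase that opens disulfide bonds of antigens, fell by 1.16 in log2 units with an SE of 0.15 (adjusted p = 6.63e-05 by edgeR). CTSL, CTSZ, RAB7A and LAMP2 did not pass, though leaving out 1 library brought calls for CTSZ (WT replicate 3 or TET2 UA replicate 2), RAB7A (WT replicate 1) and LAMP2 (WT replicate 1 or 2), at edgeR adjusted p-values of 0.0166, 0.049, 0.0341, 0.0182 and 0.0275. Calls were also lost: CTSB (called higher) and CTSC (called lower) passed in just 1 of the 6 fits that left out a library, that without WT replicate 1, and LAMP1 (called higher) did not pass without any 1 TET2 UA replicate. Their edgeR adjusted p-values in those fits were 0.0669 to 0.139, 0.0752 to 0.135 and 0.0551 to 0.0822. Of the 15, without WT replicate 1, 9 rose and 4 fell, where 37.4% of all genes in that fit rose and 31.9% fell.

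The related ubiquitin ligases that take class II molecules from the cell surface went opposite ways. MARCHF1 fell from 52.4 ± 6.79 to 20.8 ± 4.17 CPM, and MARCHF8 rose from 18.3 ± 5.36 to 54.9 ± 5.14 CPM (SD, n = 3). Their log2 fold changes were -1.32 and 1.59 (SE 0.21 and 0.24, edgeR adjusted p = 0.000248 and 0.000185). CD83, which protects class II molecules from MARCHF1, rose by 0.43 in log2 units (adjusted p = 0.0128 by edgeR), a call that was lost without TET2 UA replicate 1 or 3 (0.0624 and 0.0684) and with the TET2 UA libraries summed (0.316). UBE2D1, a ubiquitin-conjugating enzyme, had a log2 fold change of 0.47 and did not pass (edgeR adjusted p = 0.0526), but was called higher without WT replicate 1 or 2 (0.0182 and 0.0153).

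Ligands that act beside class II at the T cell contact mostly fell. Of 9 tested, 7 fell and 1 rose, where 31.4% of all genes fell and 34.6% rose. The list's median log2 fold change was -1.96. CD40, the receptor for T cell help, fell from 179 ± 49.7 to 10.1 ± 2.64 CPM (SD, n = 3), or by 4.14 in log2 units with an SE of 0.27 (adjusted p = 7.54e-07 by edgeR). CD58, ICOSLG and CD274 had log2 fold changes of -2.14, -2.42 and -1.96. PDCD1LG2, named after its values were seen, rose from 0.279 to 1.76 CPM, and CD70 did not pass (log2 fold change -2.27, edgeR adjusted p = 0.0644). Without WT replicate 2 CD70 was called lower (edgeR adjusted p = 0.0474), and without TET2 UA replicate 2 PDCD1LG2 was not called (0.116). With the TET2 UA libraries summed, the log2 fold change was -4.04 for CD40 and 2.71 for PDCD1LG2.

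Class I presentation genes divided, with 6 of 13 tested higher, 5 lower and 2 not passing. Over all genes tested, 34.6% were higher and 31.4% lower. The list's median log2 fold change was -0.12. NLRC5, the class I counterpart of CIITA, rose from 18.3 ± 8.59 to 91.0 ± 6.32 CPM (SD, n = 3), or by 2.33 in log2 units with an SE of 0.32 (adjusted p = 8.4e-05 by edgeR). PSMB9 and PSMB10, subunits of the immunoproteasome, and PSME2, of its activator, had log2 fold changes of -1.81, -1.74 and -2.64. PSME1 and PDIA3 did not pass, and without WT replicate 1 PDIA3 was called higher (edgeR adjusted p = 0.0475). TAPBP, 1 of the 6 higher, lost its call without WT replicate 2 or any 1 TET2 UA replicate, at edgeR adjusted p-values of 0.0673, 0.0959, 0.109 and 0.0947. In the RefSeq annotation of the assembly T2T-MMU8v2.0, which is not the files' build, PSMB9 and PSMB8 lie between MAMU-DMB and MAMU-DOB, within the class II region. PSMB9 fell from 404 ± 177 to 115 ± 13.3 CPM (SD, n = 3), while MAMU-DMB rose.

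**Figure D5:**
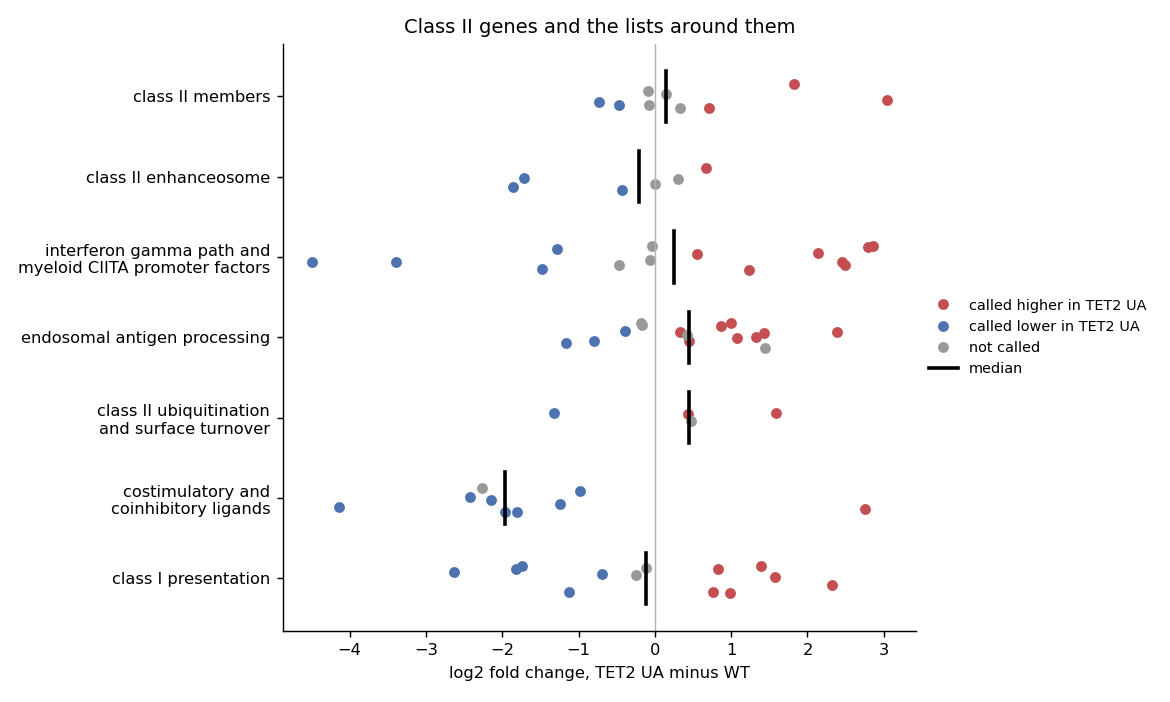
Log2 fold change of TET2 UA against WT for each tested gene of the members and of 6 lists around them, coloured by edgeR call, with a black bar at each list's median (vertical jitter only separates points). The members' median is 0.14, and that of the costimulatory and coinhibitory ligands, at -1.96, lies farthest from 0.

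Markers of the other cell types that carry class II also moved. Of 15 dendritic cell markers tested, 6 rose and 7 fell, where 34.6% of all genes rose and 31.4% fell. Their summed levels were 647 to 707 CPM in WT and 752 to 781 CPM in TET2 UA. CD207, a receptor of Langerhans cells, had a summed count of 3586 over the WT libraries and of 3 over the TET2 UA ones, and CD1B, of dendritic cells, fell from 84.7 to 2.78 CPM. The 6 that rose were FLT3 (53.7 to 267 CPM), FCER1A (9.8 to 53.1 CPM), TCF4 (174 to 292 CPM), IRF4, CADM1 and CLEC4C, named after their values were seen. FSCN1, which fell, lost its call without WT replicate 3 or TET2 UA replicate 1 or 3 (edgeR adjusted p = 0.0654, 0.0794 and 0.0575). CD1C and CCR7 did not pass, and without WT replicate 1 CD1C was called lower (edgeR adjusted p = 0.0274). Against those shares of 34.6% and 31.4%, 7 of 11 monocyte and macrophage markers rose and 1 fell. The one that fell was CD14, the lipopolysaccharide co-receptor and the most abundant of them in WT, from 1147 to 21.7 CPM (log2 fold change -5.73, the smallest p of the list). LYZ, lysozyme, rose from 464 to 7600 CPM. MARCO did not pass but was called higher without WT replicate 2 (edgeR adjusted p = 0.0245). The part of these cell types in the members' values was not tested.

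By the distance between centred log2 CPM profiles over the 6 libraries, the genes nearest to CD74 among 9384 candidates were CASP9, SLC39A7, SERPINA1, TMEM222 and GAPDH, at distances of 0.107 to 0.115. GAPDH, for example, had 3723, 2972 and 3454 CPM in WT and 2469, 2382 and 2437 CPM in TET2 UA. The genes nearest to CIITA were ERMP1, IDE, NUP50, ELOVL5 and SGMS2, at 0.129 to 0.215. All of these had their lowest level in WT replicate 1, such as ERMP1 with 28.2 CPM there and 73.0 to 86.8 CPM in the other 5 libraries. Choosing them by the profile of CIITA, which is low there, brings this about, so it is no separate result. No class II gene was among the 5 nearest to either, though HLA-DOB, with a mean under 5 CPM, was not a candidate.

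Positions are known from the authors' deposited table for 6 members. It places HLA-DOB at 33622125 to 33625968, HLA-DMA at 33772424 to 33781708, HLA-DOA at 33839896 to 33845460 and HLA-DPA1 at 33905264 to 33918688, all on chromosome 4. CD74 lies on chromosome 6 from 148532898 to 148543667 and CIITA on chromosome 20 from 10921208 to 10970745. No build is stated in that table, and Mmul_8.0.1 is the one in the submitters' processing notes. The authors' deposited table also lists a log2 fold change for each of the 6, 1.65 for CD74, 2.0 for HLA-DPA1, 2.12 for HLA-DMA, -1.15 for CIITA, -2.83 for HLA-DOA and -4.63 for HLA-DOB, without naming the groups compared. Its mean for CD74, 1446, differs from the mean of 38739 size-factor-scaled counts in these 6 libraries, so those values are not set beside the ones above.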

How the data were processed

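Single-colony RNA was made into SMART-Seq V4 cDNA and Nextera XT libraries, per the labels' protocols, a kit that marks neither strand nor molecule, so PCR copies are counted and overlapping genes cannot be told apart. The submitters' processing notes name bcl2fastq and the build Mmul_8.0.1, with no aligner or counter named in any source used here. Raw counts per gene for the 6 libraries were deposited by the authors. Their other table holds, per its file headers, the authors' average of normalized counts (a signal), log2 fold changes with standard errors, a test statistic (a score) and p-values. It served here for gene names and positions.

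Symbols are row names (2529 rows), names in the authors' deposited table (9226) or in a gene name table (7223), and 13408 rows have none. Counts were tested with edgeR 4.0.16 (R 4.3.3, quasi-likelihood F-test, robust=TRUE, label as the only term, filterByExpr defaults, TMM factors of 0.86 to 1.07), adjusted by Benjamini-Hochberg over the 13768 genes tested, all 9 members among them, with calls at an adjusted p under 0.05. The script was tested on simulated data. Most genes outside the members were named by a rule of up to 4 of smallest p per list, plus those not passing. Others were named outside the rule after their values or calls were seen, among them CTSB, CTSC, LAMP1, TAPBP, IGLL1, BLK, FSCN1, DCN and TUBB1, and PSMB8 for its position. Values of 1 list gene are not reported here. The members and lists were chosen with earlier results of these data known. A floor of 3 counts is 0.137 to 0.443 CPM, for counting error only. Gene length was not examined, since positions were on hand for 71.7% of tested genes.

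Alternatives were other scaling factors, filters and tools (DESeq2 1.42.0, limma 3.58.1), a replicate block, an adjusted p under 0.1, leaving out each library, summing the TET2 UA libraries, thinning to the smallest total, and levels relative to the members' sum.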

Additional observations from a re-analysis of the deposited data

How the results depend on the processing

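HLA-DOA stayed called higher in all 19 alternatives run (log2 fold change 1.60 to 2.08). An adjusted p under 0.1, counted among the 19, used the same fit of all 6 libraries, so it could not remove a call. HLA-DRB5 and MAMU-DMB kept direction and call in 18 of 19, the exception being the summed TET2 UA libraries. Leaving out 1 library gave 3 to 5 members called higher (5 without WT replicate 1), 1 to 2 lower (1 without any TET2 UA replicate) and 7916 to 9949 genes called, against 3, 2 and 9091. With the TET2 UA libraries summed, 0 members were lower and 5424 genes were called. Scaling by library size alone moved the median of all genes by 0.16, turned HLA-DPA1 to 0.070 and HLA-DMA to 0.12, and brought HLA-DRA past the threshold (log2 fold change 0.31). HLA-DRA also passed with limma-voom (0.19, adjusted p = 0.0118), relative to the members' sum (0.34, edgeR adjusted p = 0.0134) and without WT replicate 1 (0.21). Upper-quartile factors and limma-voom turned HLA-DMA to 0.021 and 0.17. Levels relative to the members' sum turned HLA-DPA1 to 0.10 and HLA-DMA to 0.15. Leaving out 1 library gave log2 fold changes of -0.22 to 0.24 for HLA-DMA and -0.00073 to 0.56 for CIITA, the turn coming without WT replicate 1. The causes were not tested.

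The replicate block changed no call of a member and gave 8939 genes called, and it brought MAMU-DOB past the threshold (log2 fold change 1.44, edgeR adjusted p = 0.0402). The labels do not say that a number pairs colonies. Same-numbered colonies deviated together by correlations of 0.013, 0.022 and 0.013, in each case the best of the 3 for that colony, a hint from the data at most. Summing all rows of a symbol and summing all DRB rows were not run, since each member and the DRB name had 1 row. Depth limits HLA-DOB most, with 7 to 13 counts per WT library.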
